A study of Mus musculus with 63 samples.

Results

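The comparison described here is ethanol against saline in the dorsal hippocampus of female adolescent mice, across all measured genes. Its members were the libraries whose titles carry the code F, which is 32 of the 63 libraries of the series, 16 from mice injected once with ethanol (1.5 g/kg) and 16 from mice injected with saline. They fall into 8 groups of 4 libraries: strain C57BL/6J (B6) or DBA/2J (DBA), each with fear conditioning (FC) or without it (noFC), and each with ethanol (EtOH) or saline (SAL). The 31 libraries coded M, 16 EtOH and 15 SAL, serve only for comparison. Both strains are inbred, so mice within a strain are genetically alike, and the labels name no transgene or other treatment. The sources used here do not give the time between injection, conditioning and dissection, and they do not say that libraries came from separate animals. The p-values therefore measure the spread between these libraries. In bulk tissue, fewer cells of a type and less RNA per cell cannot be told apart.

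Ethanol at this kind of dose enhances inhibitory GABA-A receptors and inhibits NMDA receptors, which dampens hippocampal firing and memory formation. Immediate early genes such as Arc, Fos and the Egr family are transcribed within minutes of neuronal activity, largely through calcium signals and the ERK kinase cascade, and Sprouty and dual-specificity phosphatase genes are induced by ERK and restrain it. FoxO factors are transcription factors held out of the nucleus by insulin and PI3 kinase signalling, and their target genes respond to fasting, insulin and energy stress.

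The libraries held between 21314277 and 61631742 gene counts, with a median of 26315132, and 0 pairs of libraries had identical counts. All 32 libraries coded F had the expression pattern of females at Xist and 4 Y-linked genes, and 0 of the 31 coded M had it. Markers of the labelled tissue were present in every library, with CA1 markers summing to 668 to 944 CPM (a gene's counts scaled to a common library size) and dentate gyrus markers to 458 to 757 CPM. Choroid plexus, the ventricular tissue that lies against the hippocampus, was unevenly represented: its 15 markers summed to between 44.2 and 12910 CPM, and 12 libraries lay above 1000 CPM, 5 EtOH and 7 SAL. As the plot of choroid plexus markers by group shows, all 4 DBA FC EtOH libraries lay above 1000 CPM and 0 of the 8 noFC EtOH libraries did.

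**Figure D1:**
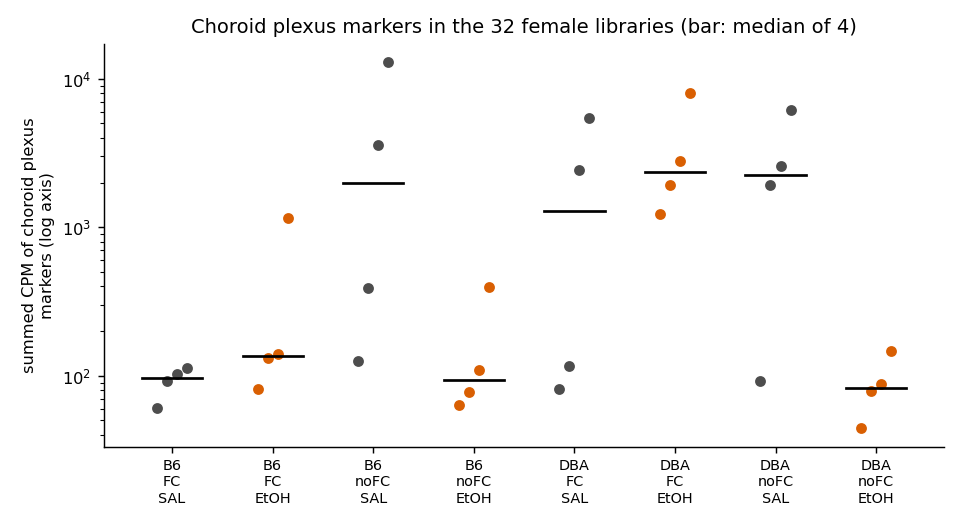
Summed CPM of 15 choroid plexus markers on a log axis, for each of the 32 female libraries by strain, conditioning and drug (points: libraries; grey saline, orange ethanol; bars: group medians). The noFC EtOH libraries reach at most 397 CPM, and DBA FC EtOH libraries all sit from 1222 CPM upward.

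Ethanol changed few genes in females, and by small amounts. Of 19199 genes tested, 12 passed an adjusted p of 0.05 (0.0625%), with 6 higher (0.0313%) and 6 lower (0.0313%) after ethanol. Those that fell were Depp1, Arc, Spry4, Dnase1l2, Egr2 and Zfp366. Those that rose were Fam214a, Pik3ip1, Tmtc2, Nrarp, Arrdc3 and 4933421O10Rik. Depp1 alone changed over 2-fold, and the smallest called change was 0.19 on the log2 scale. Over all genes the median log2 change was 0, the median standard error (SE) 0.05, and 1410 genes (7.34%) lay under 0.05 without adjustment, against a chance expectation of 960. These values come from edgeR's quasi-likelihood test, with strain and conditioning as covariates and Benjamini-Hochberg adjustment over all genes tested. Every log2 change is ethanol minus saline unless another direction is stated.

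Depp1 (ENSMUSG00000048489, chromosome 6, 116650609 to 116652794, plus strand, GRCm38), a FoxO target that takes part in autophagy, gave the smallest p. It ranged from 1.52 to 4.27 CPM in the 16 SAL libraries (median 2.57) and from 0.449 to 2.17 CPM in the 16 EtOH libraries (median 1.0). Within B6 the SAL libraries lay at 1.52 to 2.89 CPM and the EtOH libraries at 0.449 to 0.963, and within DBA they lay at 2.30 to 4.27 and 1.04 to 2.17. The drug groups thus did not overlap within either strain, a pattern that 1 of 19199 genes showed (0.00521%), although the lowest B6 saline values lay within the DBA ethanol range. Depp1 fell by 1.19 on the log2 scale (SE 0.13, adjusted p = 2.03e-06), a decrease of 56.1%, and all 16 EtOH libraries lay below the saline mean of their own group. Among its deposited transcripts, Depp1-201 held 80.5% of the gene's estimated counts and stood at 0.793 ± 0.489 CPM with ethanol against 2.11 ± 0.584 with saline (SD, n = 16 each). Depp1-202 held 18.5% and stood at 0.317 ± 0.382 against 0.351 ± 0.530 CPM. The lower level was thus seen on Depp1-201. Depp1-202 ran from 0 to 1.2 CPM with ethanol and from 0 to 1.62 with saline, too low to show whether it fell alike. No test was made of a difference between the transcripts.

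On the list of FoxO and energy stress genes, Pik3ip1, Arrdc3 and Fam214a rose, the last of which was put on that list with its result known. Pik3ip1 (ENSMUSG00000034614, chromosome 11, 3330401 to 3342971), a membrane protein that inhibits PI3 kinase, ranged from 26.4 to 37.1 CPM with saline (median 31.6) and from 31.3 to 43.1 CPM with ethanol (median 36.5). It rose by 0.24 (SE 0.04, adjusted p = 0.00142), with 7 of 16 EtOH libraries above every SAL library. Fam214a (ENSMUSG00000034858, chromosome 9, 74952884 to 75032468), a gene whose function is little known, ranged from 42.3 to 60.5 CPM with saline and from 50.9 to 65.2 with ethanol. Its drug groups overlapped across strains but not within DBA, where the SAL libraries ended at 49.0 CPM and the EtOH libraries began at 50.9. Fam214a rose by 0.23 (SE 0.03, adjusted p = 0.000231). Its transcript Fam214a-205, with 46.9% of the gene's estimated counts, stood at 26.8 ± 5.04 CPM with ethanol and 20.4 ± 4.75 with saline, whereas Fam214a-203, annotated as a target of nonsense-mediated decay, stood at 17.6 ± 2.61 and 16.4 ± 2.30 (SD, n = 16 each). Arrdc3 (ENSMUSG00000074794, chromosome 13, 80883384 to 80896042), an alpha-arrestin that promotes the removal of membrane receptors, ranged from 51.1 to 83.1 CPM with saline and from 66.1 to 100.5 CPM with ethanol. The Arrdc3 groups overlapped in both strains, 15 of 16 EtOH libraries lay above their group's saline mean, and it rose by 0.29 (SE 0.06, adjusted p = 0.0149).

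**Figure D2:**
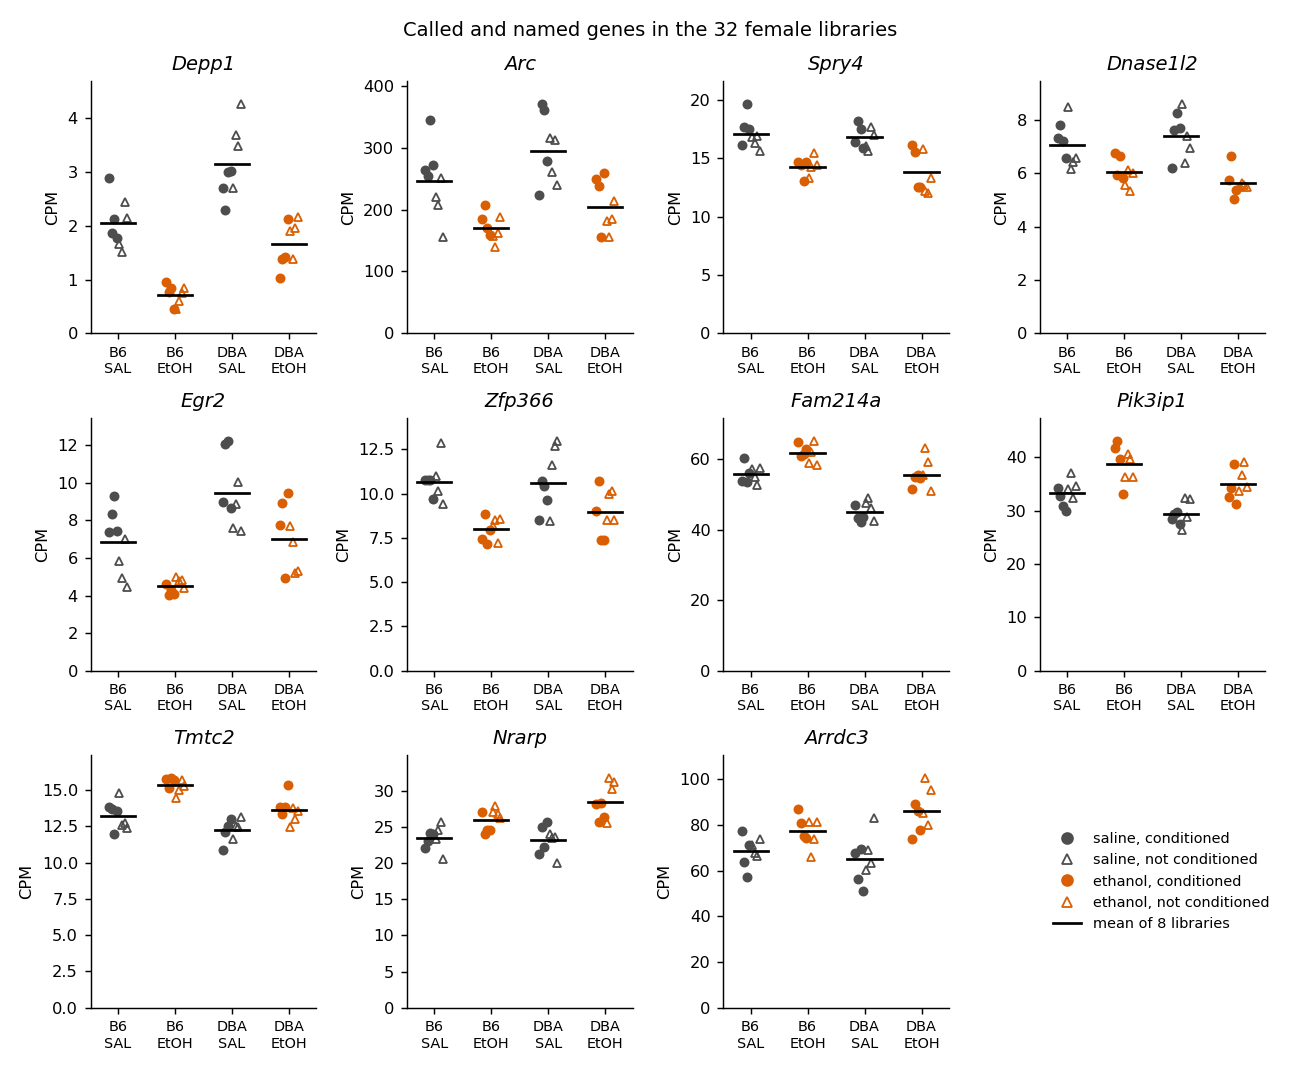
CPM of the 11 named genes that passed the test, in each of the 32 female libraries by strain and drug (grey saline, orange ethanol; filled circles conditioned, open triangles not conditioned; bars: means of 8 libraries; all axes start at 0). Depp1 falls from a mean of 2.06 to 0.713 CPM in B6 and from 3.14 to 1.67 in DBA, with no overlap in either strain.

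The FoxO and energy stress list had 24 members, all tested. Depp1 fell, Arrdc3 and Pik3ip1 rose, and Fam214a rose too but is no independent member. Of the 24, 18 had a positive value and 6 a negative one, where 50.3% of all genes were negative. Without adjustment 8 positive members and 1 negative member lay under 0.05, as did 7.34% of all genes. The list was written with earlier results of these data known and these counts include Fam214a, so they are no independent support. The median was 0.06 against 0 for all genes. The members closest to a call were Trp53inp1 at 0.19 (SE 0.06, adjusted p = 0.444), an autophagy regulator, Txnip at 0.22 (SE 0.08, adjusted p = 0.55), an alpha-arrestin that limits glucose uptake, and Cdkn1b at 0.10 (SE 0.04, adjusted p = 0.642), a cell cycle inhibitor. Txnip ran from 21.6 to 47.1 CPM with saline and from 27.4 to 45.6 with ethanol, and every EtOH library lay within the SAL range.

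Among the immediate early genes, Arc and Egr2 fell. Arc (ENSMUSG00000022602, chromosome 15, 74669083 to 74672570, minus strand) encodes a synaptic protein that drives removal of AMPA receptors. Arc ranged from 156 to 370 CPM with saline (median 262) and from 140 to 259 CPM with ethanol (median 182). All 16 EtOH libraries lay below the median SAL library and below their own group's saline mean, yet the groups overlapped, and the lowest SAL library, of B6, lay under most EtOH libraries. Arc fell by 0.52 (SE 0.08, adjusted p = 0.000888), a decrease of 30.5%. Both Arc transcripts were lower, Arc-201 at 111 ± 22 against 155 ± 36.2 CPM and Arc-202 at 65.9 ± 14.4 against 101 ± 21.4 (SD, n = 16 each).

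Egr2 (ENSMUSG00000037868, chromosome 10, 67535475 to 67542188, plus strand), a zinc finger transcription factor, ranged from 4.43 to 12.2 CPM with saline and from 4.01 to 9.49 with ethanol. In B6 the 8 EtOH libraries were tightly grouped at 4.01 to 5.01 CPM, and the SAL libraries spread from 4.43 to 9.31. In DBA the EtOH libraries spread from 4.91 to 9.49 CPM and overlapped the SAL libraries, which lay at 7.42 to 12.2. Egr2 fell by 0.51 (SE 0.09, adjusted p = 0.00852), and 14 of 16 EtOH libraries lay below the median SAL library.

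The list of immediate early genes had 39 tested members of 40 listed. Of these edgeR called 2 lower (0.0313% of all genes were) and 0 higher. With those 2 included, 29 had a negative value (50.3% of all genes did), and the median was -0.07. Without adjustment 12 negative and 4 positive members lay under 0.05, as did 7.34% of all genes. Arc and Egr2 are among the 12, and members can vary together between libraries. This list too was written with earlier results of these data known, so its counts are no independent support. Fos stood at 15.2 to 32.4 CPM with saline and 14.0 to 33.2 with ethanol, with a change of -0.28 (SE 0.08, adjusted p = 0.256). Egr1 stood at -0.22 (SE 0.07, adjusted p = 0.346) and Npas4, a neuron-specific activity factor, at -0.21 (SE 0.07, adjusted p = 0.464), and neither passed. On the positive side the matricellular gene Ccn1 had 0.33 (SE 0.11, adjusted p = 0.464), with a highest EtOH library of 13.8 CPM in DBA and a highest SAL library of 6.97 CPM. Ppp1r15a, a phosphatase subunit that restores translation after stress, had 0.13 (SE 0.04, adjusted p = 0.413). Delayed activity genes, the later wave that includes Bdnf, had 0 of 22 called by edgeR, 0 also without adjustment, and a median of -0.02, and Bdnf itself stood at 54.0 ± 9.17 CPM with saline and 52.7 ± 9.73 with ethanol (SD, n = 16 each). Its change of -0.04 had a 95% confidence interval from -0.15 to 0.08 on the log2 scale.

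Of the ERK feedback genes, edgeR called 1 of 15 lower (0.0313% of all genes were) and 0 higher. With that 1 included, 10 had a negative value (50.3% of all genes did), and the median was -0.09. Without adjustment 5 negative and 0 positive members lay under 0.05, as did 7.34% of all genes. Members can vary together between libraries, and the list was written with earlier results known, so these counts are no independent support. The member that fell was Spry4 (ENSMUSG00000024427, chromosome 18, 38586247 to 38601415), a Sprouty inhibitor of receptor tyrosine kinase signalling. Spry4 ranged from 15.6 to 19.7 CPM with saline and from 12.04 to 16.2 with ethanol, and 14 of 16 EtOH libraries lay under every SAL library. The drug groups did not overlap in B6 and did in DBA, and Spry4 fell by 0.27 (SE 0.04, adjusted p = 0.000999). Dusp5 (-0.25, adjusted p = 0.128) and Dusp6 (-0.20, adjusted p = 0.324), nuclear and cytoplasmic ERK phosphatases, did not pass in edgeR, nor did Trib1 (-0.20, adjusted p = 0.207) or Spry2 (-0.15, adjusted p = 0.207). Dusp5 was called by DESeq2 (-0.26, adjusted p = 0.0325) and with all 63 libraries in the edgeR fit (-0.25, adjusted p = 0.0345).

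The other genes that passed belong to several pathways. Nrarp (ENSMUSG00000078202, chromosome 2, 25180758 to 25183339), a Notch target that feeds back on Notch signalling, ranged from 20.0 to 25.7 CPM with saline and from 24.0 to 31.7 with ethanol, and 11 of 16 EtOH libraries lay above every SAL library. Nrarp rose by 0.22 (SE 0.04, adjusted p = 0.00702). It was the 1 of 17 Notch pathway genes that passed, beside Heyl at 0.25 (adjusted p = 0.525) and Notch1 at 0.10 (adjusted p = 0.644), and the list median was 0.01. Tmtc2 (chromosome 10, 105187663 to 105574451), an endoplasmic reticulum membrane protein, rose by 0.19 (SE 0.03, adjusted p = 0.00655), from 12.7 ± 0.935 to 14.5 ± 1.1 CPM (SD, n = 16 each).

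Promoter sequence is shown for 2 of the genes that fell, Depp1 and Egr2, and for a gene of each of their pathways that holds the motif searched, to set FoxO-linked and activity-linked starts side by side. 3 motifs were searched on both strands of the 250 bases before each RefSeq start site (GRCm38.p6): the FoxO motif GTAAACA, the cyclic AMP response element TGACGTCA and the CArG box, which binds serum response factor. They were found in 3.17%, 1.55% and 1.47% of all 32851 promoters. All 4 genes lie on the plus strand, the stretches run 5′ to 3′, capitals mark a motif, and bases within an annotated exon of the gene are left out.
Depp1 (chr6:116650434-116650608): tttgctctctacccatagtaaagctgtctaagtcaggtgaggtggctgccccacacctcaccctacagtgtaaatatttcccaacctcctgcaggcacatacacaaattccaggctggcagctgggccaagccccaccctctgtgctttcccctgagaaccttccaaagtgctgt
Txnip (chr3:96557707-96557956): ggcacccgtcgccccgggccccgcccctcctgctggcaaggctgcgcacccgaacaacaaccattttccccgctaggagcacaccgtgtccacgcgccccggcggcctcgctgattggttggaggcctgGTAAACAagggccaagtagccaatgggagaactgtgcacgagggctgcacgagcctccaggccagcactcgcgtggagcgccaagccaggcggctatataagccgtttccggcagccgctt
Egr2 (chr10:67537619-67537868): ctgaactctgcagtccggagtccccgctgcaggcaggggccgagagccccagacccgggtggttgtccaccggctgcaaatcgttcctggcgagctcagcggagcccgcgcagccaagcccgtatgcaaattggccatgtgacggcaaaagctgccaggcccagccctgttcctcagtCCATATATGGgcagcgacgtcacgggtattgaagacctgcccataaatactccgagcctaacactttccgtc
Dusp5 (chr19:53528895-53529108): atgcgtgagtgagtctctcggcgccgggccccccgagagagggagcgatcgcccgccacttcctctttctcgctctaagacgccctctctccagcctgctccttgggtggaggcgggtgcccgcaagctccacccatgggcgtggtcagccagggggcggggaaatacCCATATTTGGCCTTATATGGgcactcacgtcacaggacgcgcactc
Egr2 has several RefSeq starts, and the start shown, 2394 bases from the deposited gene start, held a CArG box before it. The Egr2 start nearest the deposited gene start, 24 bases away, held 0 of the 3 motifs. Dusp5 held 2 adjoining CArG boxes. Txnip held a FoxO motif, and the Depp1 window held 0 of the 3 motifs. Dusp5 and Txnip are shown because they hold a motif, and neither passed the test. Of the 17 genes looked up that had an entry, 3 held a motif, namely these and Egr2, and Pik3ip1, Fam214a and Arrdc3 held none. A match or its absence describes these letters only.

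Zfp366 (chromosome 13, 99184823 to 99250656), a zinc finger corepressor, fell by 0.33 (SE 0.06, adjusted p = 0.0136), from 10.6 ± 1.38 to 8.47 ± 1.08 CPM, and its drug groups did not overlap in B6. Dnase1l2 (chromosome 17, 24440081 to 24443105), a DNase I family enzyme, ranged from 6.14 to 8.59 CPM with saline and from 5.03 to 6.74 with ethanol, and 13 of 16 EtOH libraries lay under every SAL library. Dnase1l2 fell by 0.31 (SE 0.05, adjusted p = 0.00419). Within B6, 10 genes (0.0521%) had drug groups without overlap, among them Depp1, Spry4 and Zfp366, and within DBA 5 genes did (0.026%), among them Depp1 and Fam214a.

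Of 23 cytosolic heat shock genes edgeR called 0, 13 lay under 0.05 without adjustment, 22 had a negative value and the median was -0.09, with -0.03 in the libraries of the lower title numbers and -0.16 in those of the higher. Over all genes 7.34% lay under 0.05 without adjustment and 50.3% were negative. Members of a list can vary together between libraries, so their number does not count as so many measurements. Dnajb1, a cochaperone of Hsp70, stood at 39.4 to 79.0 CPM with saline and 35.0 to 49.9 with ethanol, with a change of -0.29 (SE 0.06, adjusted p = 0.0704). Dnajb1 was called by DESeq2 (adjusted p = 0.00935) and with all 63 libraries in the edgeR fit (adjusted p = 0.0113). Dnajb1 averaged 46.75 CPM with saline and 43.49 with ethanol at the lower title numbers, and 55.19 and 39.08 at the higher. Hspa1a, an inducible Hsp70 gene whose near-identical neighbour Hspa1b makes the split of reads uncertain, had a change of -0.61 (SE 0.19, adjusted p = 0.385). Its SAL libraries ran from 2.52 to 17.2 CPM, with the highest values in DBA, and its EtOH libraries from 2.80 to 6.73. Hspa1a averaged 5.35 CPM with saline and 4.85 with ethanol at the lower title numbers, and 9.36 and 4.84 at the higher. Dnajb5 (-0.14, adjusted p = 0.253) and Hspb1 (-0.55, adjusted p = 0.273) did not pass. Of 21 endoplasmic reticulum stress genes edgeR and DESeq2 called 0, 8 lay under 0.05 without adjustment, 17 had a negative value and the median was -0.08. That median was 0.01 in FC with 10 of 21 negative and -0.16 in noFC, 0.01 in the libraries with the lower title numbers and -0.16 in those with the higher, and -0.03 without B6_F_noFC_SAL_323. It was -0.002 without the 12 libraries above 1000 CPM of choroid plexus markers. The chaperone Manf stood at -0.16 (adjusted p = 0.413) and the stress factor Atf4 at -0.08 (adjusted p = 0.273).

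All 38 ribosomal protein genes tested had a negative value, between -0.12 and -0.02 with a median of -0.07, and edgeR and DESeq2 called 0 of them (6 lay under 0.05 without adjustment). Without DBA_F_noFC_SAL_313 that median was -0.04. Of 36 respiratory chain genes 35 were negative (median -0.06), and edgeR called 0, with 17 under 0.05 before adjustment. The smallest p was at Ndufb2, a complex I subunit (-0.16, adjusted p = 0.162), which DESeq2 called (adjusted p = 0.0458). Over all genes 50.3% were negative and 7.34% lay under 0.05 before adjustment. Members of such lists vary together between libraries, so their number does not count as so many measurements. In males the medians were 0.003 with 14 of 38 negative and -0.01 with 20 of 36 negative, and this difference between the sexes was not tested for the lists.

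Among receptor genes, edgeR and DESeq2 called 0 of 14 GABA-A receptor subunits tested, 0 also lay under 0.05 without adjustment, and the median was 0.01. Of 17 ionotropic glutamate receptor subunits both tools called 0, 0 lay under 0.05 without adjustment, 15 had a positive value and the median was 0.04, with Gria1, an AMPA receptor subunit, at 0.07 (adjusted p = 0.787) and Grin2b, an NMDA receptor subunit, at 0.07 (adjusted p = 0.789). Genes of ethanol and aldehyde metabolism had 0 of 12 called by both tools (3 under 0.05 without adjustment), with Aldh1b1 at 0.13 (adjusted p = 0.614), and Cyp2e1, the ethanol-oxidising cytochrome, was below the filter on low counts. Glucocorticoid-induced genes had 0 of 23 called by both tools (1 under 0.05 without adjustment) and a median of -0.01, with Fkbp5 at 0.01, Sgk1 at -0.06 and Per1 at -0.10. Cholesterol synthesis had 0 of 23 called by both tools (3 under 0.05 without adjustment) with 19 positive and a median of 0.02. In 18 clock genes and 23 histone and DNA methylation enzymes both tools called 0, with 2 in each list under 0.05 before adjustment and medians of -0.01 and 0.01. In 15 p53 targets, with a median of -0.01 and 4 under 0.05 before adjustment, edgeR called 0. Bbc3, a cell death gene (0.25, adjusted p = 0.162), was called by DESeq2 (adjusted p = 0.0458) and with all 63 libraries in the edgeR fit (adjusted p = 0.0465). In 15 cytokine and NF-kB genes, with 6 others such as Tnf, Il1b and Il6 below the filter, edgeR called 0, with 1 under 0.05 before adjustment, Hmgb2, a chromatin protein (0.37, SE 0.08, adjusted p = 0.0872). Hmgb2 was called by DESeq2 (adjusted p = 0.031), with all 63 libraries (0.0223), with the title number as a block (0.0236) and with choroid plexus markers as a covariate (0.0479). The plot of list members shows each of these values. Over all genes 7.34% lay under 0.05 before adjustment and 50.3% were negative.

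**Figure D3:**
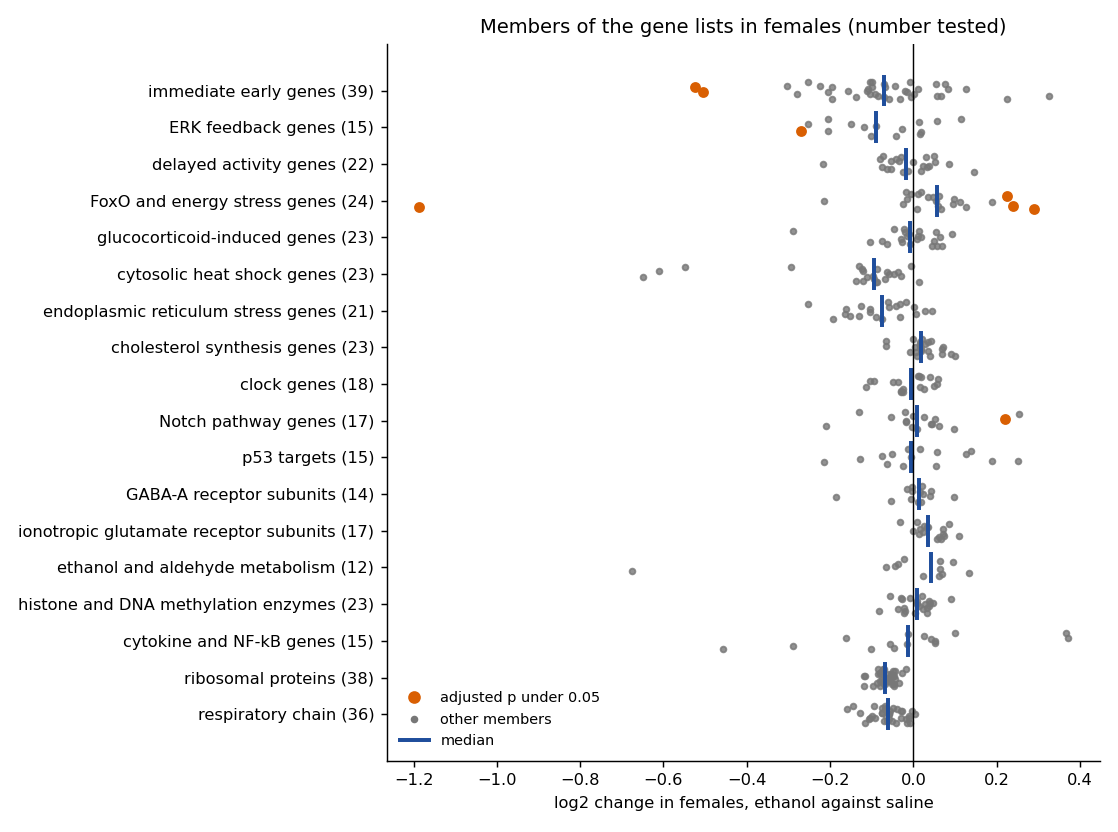
log2 change between ethanol and saline in females for the members of 18 gene lists (grey points: members; orange points: members with adjusted p under 0.05; blue bars: list medians; numbers of members tested in parentheses). The called members are Arc, Egr2, Spry4, Depp1, Fam214a, Pik3ip1, Arrdc3 and Nrarp, and the list medians lie between -0.09 and 0.06.

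The 15 choroid plexus markers all had a negative value, from -2.07 to -0.89 with a median of -1.42, and 0 were called by edgeR or DESeq2 (0 under 0.05 without adjustment). Their median was 1.16 in FC, with all 15 positive, and -4.32 in noFC, and it was -0.78 over all females without B6_F_noFC_SAL_323. With the mean of these markers as a covariate 24 genes passed, all 12 calls and also Egr1 (-0.26, adjusted p = 0.0399) and Spry2 (-0.17, adjusted p = 0.0339). Without the 12 libraries above 1000 CPM, a setting added after the data were seen, 6 genes passed, 5 of them among the 12, namely Depp1 (-1.29), Egr2 (-0.72), Zfp366 (-0.41), Arc (-0.65) and Spry4 (-0.32). The other 7 kept their sign with an unadjusted p under 0.05, and Nrarp went to 0.13 (adjusted p = 0.644). The fit without the 12 libraries kept 11 EtOH and 9 SAL libraries, with 0 of DBA FC EtOH and 1 of DBA noFC SAL. What its smaller and uneven groups contributed to the lost calls was not tested. All 12 oligodendrocyte markers were positive (median 0.12, with -0.10 in B6 and 0.34 in DBA) and all 8 blood markers negative (median -0.19), with 0 called by edgeR or DESeq2 in either list (0 and 1 under 0.05 without adjustment). Without DBA_F_FC_SAL_325 or B6_F_FC_EtOH_315 the oligodendrocyte median was 0.07. The blood median was -0.03 without B6_F_FC_SAL_315, -0.08 without B6_F_noFC_SAL_319, -0.29 without DBA_F_FC_SAL_321, -0.33 without DBA_F_FC_EtOH_313 and -0.38 without DBA_F_noFC_EtOH_317. Oligodendrocyte markers summed to 5269 to 16390 CPM with saline and 8307 to 18460 with ethanol, and their part in the results was not tested.

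Drug and the letter of the title coincide within the lower and within the higher range of title numbers, and the pairing of drug with letter is reversed between the ranges. The ethanol effect was therefore also fitted within each range of 16 libraries. All 12 genes had the same sign and an unadjusted p under 0.05 in both ranges, against 4.9% and 8.58% of all genes with such a p. The 12 were called on the same libraries that the ranges divide. This agreement is therefore favoured by that choice and is no independent support. Depp1 had -1.21 and -1.17, Arc -0.50 and -0.56, Pik3ip1 0.23 and 0.25, Fam214a 0.20 and 0.25, and Egr2 -0.39 and -0.64 in the lower and higher range. Zfp366 had -0.20 and -0.46. With adjustment over all genes, 0 genes passed in the lower range (948 at an unadjusted p under 0.05) and 1, Depp1, in the higher.

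Within strains, Depp1 was the 1 gene called in B6 females (0.00521%), with -1.53 (SE 0.17, adjusted p = 1.78e-05). In DBA females 5 genes passed (0.026%): Depp1 (-0.92, adjusted p = 0.0169), Fam214a (0.30, adjusted p = 0.000551), Nrarp (0.29, adjusted p = 0.0292), Arrdc3 (0.40, adjusted p = 0.0331) and Arrdc2 (0.43, adjusted p = 0.045). With the title number as a block 2 genes passed in DBA, Depp1 and Fam214a. Of 32 fits that left out 1 library, the DBA call of Arrdc2 was lost in 24 and that of Arrdc3 in 10. The call of Nrarp was lost in 6, that of Depp1 in 3 and that of Fam214a in 0. The effects of the 11 named genes had the same sign in both strains, as the plot of effects within strain and conditioning shows. Since the 11 were called on these same libraries, a shared sign was likely in advance. A difference between strains was called for 1 gene (0.00521%), Arrdc2, and for none of the 11. Among these the smallest p belonged to Fam214a (0.15, SE 0.06) and Depp1 (0.61, SE 0.23), each with adjusted p = 0.9999.

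Arrdc2 (ENSMUSG00000002910, chromosome 8, 70835129 to 70839720, minus strand), another alpha-arrestin, ranged in DBA from 8.34 to 11.7 CPM with saline (median 9.91) and from 9.77 to 16.2 with ethanol (median 13.3). In B6 it ranged from 14.4 to 19.4 CPM with saline (median 15.9) and from 12.1 to 15.7 with ethanol (median 13.9). With saline every B6 library lay above every DBA library, with ethanol the strains overlapped, and the drug groups overlapped within both strains. The DBA minus B6 difference of the log2 changes was 0.67 (SE 0.11, adjusted p = 0.0481), with 0.43 (SE 0.08) in DBA and -0.24 (SE 0.08, adjusted p = 0.815) in B6. This call is close to the threshold: it was lost in 26 of 32 fits that left out 1 library (adjusted p from 0.0108 to 0.139, difference from 0.62 to 0.72). It was also lost with the title number as a block.

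**Figure D4:**
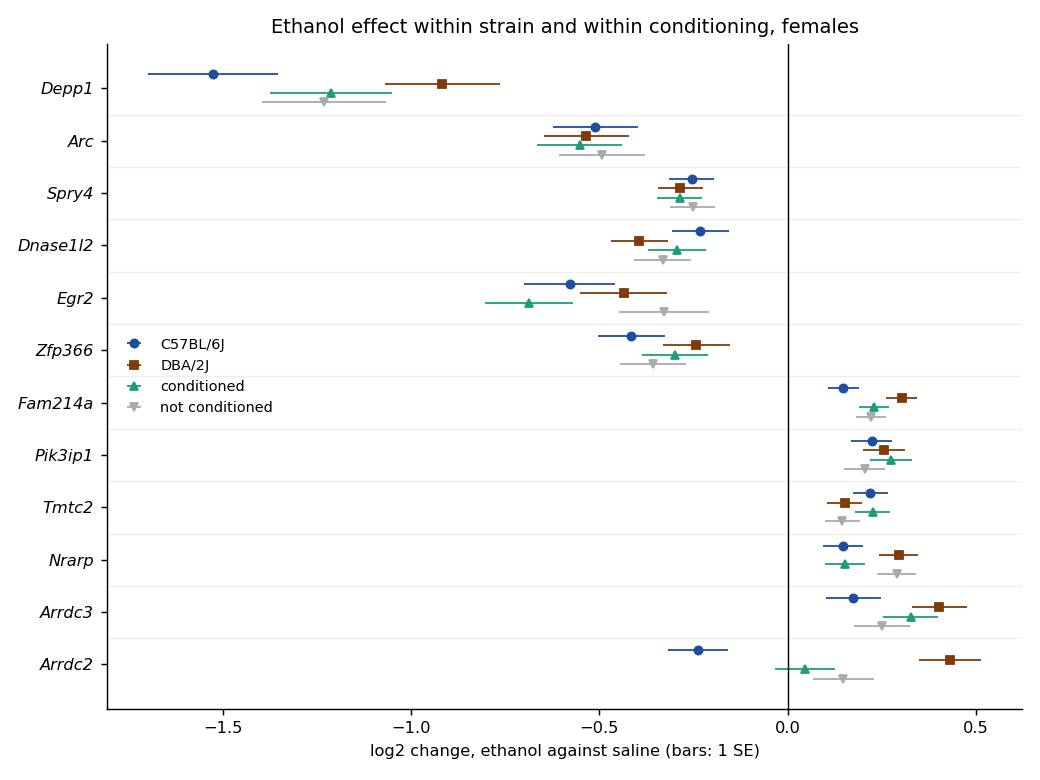
log2 change between ethanol and saline within each strain and within each conditioning state, for the 11 named genes and Arrdc2 (symbols: estimates; bars: 1 SE; 16 libraries each). The 11 genes lie on the same side of 0 in all 4 subsets, and Arrdc2 lies at -0.24 in B6 and 0.43 in DBA. The 11 were called on these same libraries, which makes a shared sign likely in advance.

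Within conditioning states, 3 genes passed in FC females (0.0156%), Depp1 (-1.21, adjusted p = 0.000552), Egr2 (-0.69, adjusted p = 0.0225) and Fam214a (0.23, adjusted p = 0.0232). In noFC females 69 passed (0.359%), 6 higher and 63 lower. Depp1 (-1.23, adjusted p = 0.000598), Arc (-0.49, adjusted p = 0.0478), Dnase1l2 (-0.33, adjusted p = 0.0494), Fam214a (0.22, adjusted p = 0.0248) and Nrarp (0.29, adjusted p = 0.0248) were among them. Also higher were Pars2 (0.32), a mitochondrial prolyl-tRNA synthetase, the transcription factor Tfap4 (0.38), each with adjusted p = 0.0248, and the receptor Gpr85 (0.17, adjusted p = 0.0499). The 63 that were lower included 13 of the 15 choroid plexus markers, with Ttr, which encodes the thyroid hormone carrier transthyretin, at -5.36 and the potassium channel subunit Kcne2 at -5.04. Wfdc2 (-4.75), Prr32 (-4.57), Cox8b (-3.91) and Slc24a5 (-2.92) were, with 2900040C04Rik (-4.38), those with the smallest p on that side after Depp1, each with adjusted p = 0.0248.

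Summed choroid plexus markers were at 91.5 to 12910 CPM (median 2244) in the 8 noFC SAL libraries and at 44.2 to 397 CPM (median 83.3) in the 8 noFC EtOH libraries. In FC they ran the other way, at 60.9 to 5425 CPM (median 107) with saline and 81.7 to 8041 (median 1188) with ethanol. With their mean as a covariate, likewise a later addition, 4 genes passed in noFC, 2 of them among the 69: Arc (-0.75, adjusted p = 0.00218), Depp1 (-1.17, adjusted p = 0.0167), Rhoj (0.48, adjusted p = 0.0303) and Spry2 (-0.28, adjusted p = 0.0324). Without the library B6_F_noFC_EtOH_311, 1 gene passed in noFC, and without B6_F_noFC_SAL_319, 230 did. With the title number as a block 1 gene passed in noFC, Depp1. The difference of the ethanol effect between FC and noFC was called for 0 genes (0%) by edgeR, with 1581 at an unadjusted p under 0.05, and for 90 by DESeq2. Its smallest p belonged to Ttr (7.10, SE 1.39), the choline pathway enzyme Bhmt (5.69, SE 1.12) and the claudin Cldn9 (4.32, SE 0.87), each with adjusted p = 0.105. For the 11 named genes that difference had its smallest p at Egr2 (-0.36, SE 0.17, adjusted p = 0.563).

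In males, fitted separately on 31 libraries that share none with the females, 14 of 19583 genes passed (0.0715%), 7 in each direction. Calls in both sexes were made for 5 genes, Depp1, Arc, Fam214a, Pik3ip1 and Nrarp, which is 41.7% of the female and 35.7% of the male calls. All 12 genes called in females had the same sign and an unadjusted p under 0.05 in males, where 5.95% of all genes had such a p. The male changes were -0.77 (SE 0.14) for Depp1, -0.41 (SE 0.06) for Arc, 0.15 (SE 0.03) for Fam214a, 0.19 (SE 0.03) for Pik3ip1 and 0.23 (SE 0.05) for Nrarp, with adjusted p from 0.00137 to 0.0481. Called in females and not in males were Egr2 (male -0.38, adjusted p = 0.527), Spry4 (-0.19, adjusted p = 0.339), Zfp366 (-0.30, adjusted p = 0.249), Dnase1l2 (-0.24, adjusted p = 0.209), Tmtc2 (0.12, adjusted p = 0.769), Arrdc3 (0.25, adjusted p = 0.175) and 4933421O10Rik (0.08, adjusted p = 0.827).

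The 9 genes called in males alone also had the male sign and an unadjusted p under 0.05 in females (7.34% of all genes had one). They were Zfp867 (female 0.32, SE 0.09), the p53 target Bbc3 (0.25, SE 0.06), Sox12 (0.11, SE 0.03) and Rsrp1 (0.08, SE 0.04), and on the lower side Trim65 (-0.24, SE 0.06), Dusp6 (-0.20, SE 0.06), the collagen hydroxylase P4ha1 (-0.20, SE 0.05) and the chaperones Dnajb5 (-0.14, SE 0.04) and Hsph1 (-0.12, SE 0.04). The female minus male difference of the ethanol effect was called for 0 of 19974 genes (0%) by edgeR, for 0 by DESeq2, and 1011 lay under 0.05 without adjustment, against a chance expectation of 999. Its smallest p belonged to Zfp819 (-1.57, SE 0.38), Pafah1b3 (-0.38, SE 0.09) and Emc9 (-0.19, SE 0.05), each with adjusted p = 0.931. For Depp1 the difference was -0.44 (SE 0.18, adjusted p = 0.931), the female change being larger in size, and it was not called.

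**Figure D5:**
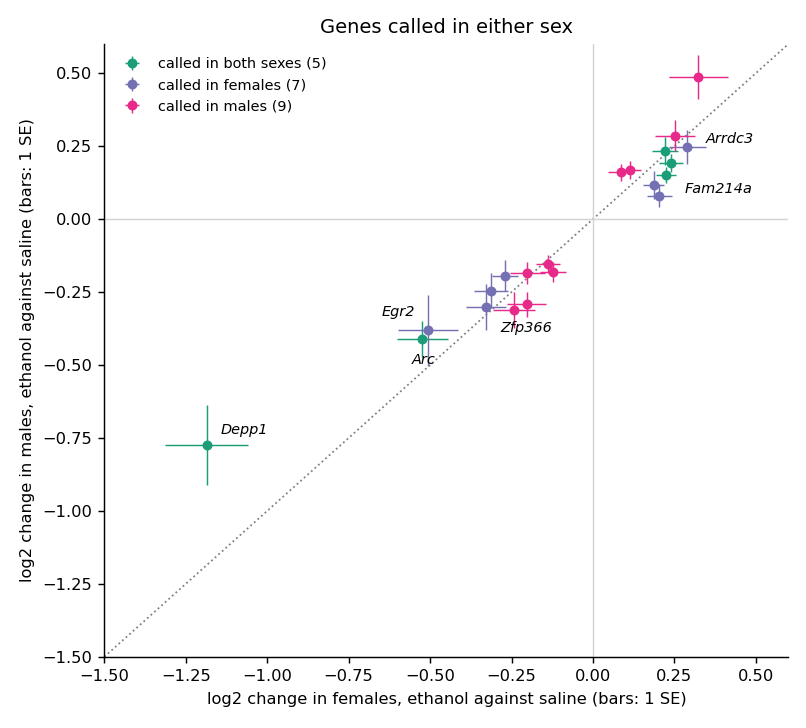
log2 change with ethanol in females (x axis) and males (y axis) for the 21 genes called in either sex (points: estimates; bars: 1 SE; dotted line: equal change). All 21 genes have the same sign in both sexes, and Depp1, at -1.19 and -0.77, lies farthest from 0.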

How the data were processed

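RNA of dorsal hippocampus was measured as stranded poly(A) libraries read from one end, per the labels' protocols. The authors deposited whole-number read counts per gene and estimated counts per transcript. The submitters' processing notes name GRCm38 as the build and, without versions, the tools Salmon, featureCounts, HISAT2, fastp and DESeq2. Of 55401 genes 55141 had a GENCODE M21 identifier, which gave symbols and types; positions are the deposited ones. edgeR 4.0.16 (R 4.3.3) was used with TMM scaling (factors 0.96 to 1.05) after filterByExpr (minimum count 10), which kept 19199 genes with 99.935% of female counts and left out 36202. Females were fitted with strain and conditioning as additive covariates, subsets and differences with 1 coefficient per group, males alone, and the sex difference on all 63 libraries. Tests are two-sided quasi-likelihood F tests, called at an adjusted p under 0.05. They were also run on simulated data, with changes larger than most called here and with libraries drawn independently. Those runs thus do not cover changes as small as most of these, or variation shared between libraries. CPM are scaled counts, so counting error is larger for genes at low CPM such as Depp1. Rounded transcript sums per gene and DESeq2 1.42.0 served as alternatives. Estimated counts of transcripts were divided by their library sum.

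The comparison, gene lists and tests were chosen with earlier results of these data known. Named genes are all called genes in females that have a symbol not of the Gm or Rik kind, up to 6 members per list with the smallest p, a fixed set of 17 genes, up to 5 per direction in each other comparison (or the 3 with the smallest p where 0 were called), and others chosen after their values were seen, such as 4933421O10Rik, the males' further calls, Ttr and Kcne2 in noFC, and genes called under an alternative. RefSeq promoters matched 17 of 21 genes looked up.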

Additional observations from a re-analysis of the deposited data

Results flagged for a closer look

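In 192 sets of 4 libraries (24 genes in 8 groups), 7 (3.65%) held 1 library far from the other 3, where chance gives about 1 in 20. These were Nrarp at 20.0 CPM in DBA_F_noFC_SAL_325 (others 23.5 to 24.0), Tmtc2 at 11.98 in B6_F_FC_SAL_319 (13.6 to 13.8) and at 14.8 in B6_F_noFC_SAL_311 (12.4 to 12.7), and Zfp366 at 9.68 in B6_F_FC_SAL_323 (10.7 to 10.8). The others were Egr1 at 258 in B6_F_FC_SAL_319 (200 to 206), Dnajb1 at 40.3 in B6_F_noFC_SAL_315 (45.1 to 45.4) and Ccn1 at 13.8 in DBA_F_FC_EtOH_325 (7.39 to 8.32). Without that last library the Ccn1 change in females was 0.25 in place of 0.33. The ethanol effect on Arrdc2 differed between the strains by 0.67 (log2, DBA/2J minus C57BL/6J) in a test of the difference itself (edgeR, adjusted p = 0.0481). That call was lost with the title number as a block.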

How the results depend on the processing

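The 11 named calls were called in all 32 fits that left out 1 library, and all 12 kept their sign in every other setting that tested them. In females 12 genes were called, and 29 with DESeq2, 21 with all 63 libraries in the fit, 24 with the choroid plexus covariate, 6 without the libraries above 1000 CPM of its markers, and 0 and 1 with the lower and higher title numbers alone, each with 16 of the 32 libraries. With DESeq2 counts were 7 in B6, 13 in DBA, 8 in FC, 165 in noFC, 90 for the conditioning difference and 22 in males. Without a filter they were 145 in noFC, 56 for the conditioning difference and 8 in males. With the choroid plexus covariate they were 5 in B6, 12 in DBA, 4 in noFC and 22 in males. The strain difference (1) went to 0 with RLE scaling or transcript sums. The cause of these changes was not tested.

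Leaving out 1 library gave 12 to 15 calls in females, 1 to 3 in B6, 1 to 12 in DBA, 1 to 9 in FC, 1 to 230 in noFC, 0 to 1 for the strain difference, 0 to 81 for the conditioning difference, 10 to 14 in males and 0 for the sex difference. The lowest counts came without DBA_F_noFC_EtOH_317 in DBA and without B6_F_FC_EtOH_315 in FC, and the highest without DBA_F_FC_SAL_313 in DBA and without B6_F_FC_EtOH_323 in FC. The highest for the conditioning difference came without B6_F_noFC_SAL_319.

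Libraries share a title number across drug and conditioning groups. Same-numbered pairs had a correlation of deviations over 0.1 in 28 of 48 pairs (median 0.16 against -0.02 for other numbers, 11087 genes), and 18 of 32 libraries correlated best with their own number, a hint that libraries of a number share something. What the number marks is not labelled, and the block was kept as an alternative because not every pair lay over 0.1. That rule does not show that libraries of a number are independent, as the main fits take them to be. With the number as a replicate block, 17 genes were called in females, 2 in DBA, 1 in noFC, 0 for the strain difference, and other counts stayed within 1.5 times.

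At the depth of these libraries Depp1, at 0.449 to 4.27 CPM, has a larger counting error than genes at the level of Arc, and genes below the filter, such as Cyp2e1, were not measured. The medians of 6 lists close to 0 (delayed activity, glucocorticoid-induced, clock, Notch, p53 and cytokine genes) changed sign in some fits without 1 library.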
